A study of Mus musculus with 64 samples.

Results

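Clone E is one of 7 clonal lines, named E, H, K, M, N, T and V, that were subcloned from a pancreatic tumour of KPC mice, a model in which the Pdx1-Cre transgene drives mutant alleles, Trp53 R172H among them, in the pancreas. Its transcriptome was taken from the 4 libraries of clone E grown in mono-culture, of 64 samples in the series, and was set against the 24 mono-culture libraries of the other 6 clones, with each clone averaged first so that all clones weighed the same. The parental KPC1 samples were left out. All 28 libraries are murine pancreatic tumour cells of mixed C57BL/6 background and each clone had 4 libraries. The remaining samples include the same clones after 48 h in coculture with fibroblasts, from which the tumour cells were sorted by their GFP. Each line is 1 clone, and neither sorting of the mono-cultured cells nor separate cultures behind the 4 libraries of a clone are stated in the labels.

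Pancreatic ductal adenocarcinoma cells lie along a range from an epithelial state, in which cells hold to each other through E-cadherin, to a mesenchymal state, in which they secrete fibronectin, collagens and matrix proteases and bind them through integrins. The Wnt pathway runs from secreted Wnt ligands through Frizzled receptors and Lrp co-receptors to target genes such as Axin2, Lgr5 and Rnf43, and Rnf43 in turn removes Frizzled from the cell surface. Glutathione S-transferases couple glutathione to reactive compounds, and glutamate-cysteine ligase makes the precursor of glutathione.

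The clone E libraries held 13162870 to 21333683 counts and those of the other 6 clones 11661214 to 19486215. Each of the 28 libraries was closest to a library of its own clone over 12010 genes, with Pearson's r of at least 0.9884 between clone E libraries and at most 0.9627 between clone E and another clone. Levels are given as CPM, counts scaled to the normalised library total. The epithelial marker Cdh1, which encodes E-cadherin, was at 136, 143, 155 and 126 CPM in clone E. A list of 30 epithelial genes summed to 3197 CPM in clone E, within the 2425 to 3691 CPM of the other clones. Of markers of other cells, 10 fibroblast genes summed to 48.1 to 66.2 CPM against 47.5 to 253 CPM in the other clones. Most of the clone E sum came from Col3a1 at 30.9, Pdgfrb at 18.5 and Col1a1 at 7.47 CPM, while Postn, Lum and Thy1 were at 0 in all 4 libraries. Leukocyte markers summed to 13 to 18.5 CPM against 2.33 to 21.1 CPM, endothelial markers to 0.372 to 0.858 CPM against 0 to 12 CPM, acinar markers to 2.6 to 3.27 CPM against 1.94 to 20.4 CPM and endocrine markers to at most 0.0536 CPM against at most 0.148 CPM. Trp53, a gene mutated in the model, was at 270.1 ± 6.49 CPM (SD, n = 4) and lay within the range of the other clones' libraries. Against the mean of the other 6 clones it was slightly lower, by -0.19 ± 0.06 on the log2 scale (SE; adjusted p = 0.00996, edgeR).

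The first question was which genes the clone did not use although every other clone did. A gene was called off when the mean of clone E was under 0.1 CPM and the mean of each of the other 6 clones at least 1 CPM. This held for 6 of the 23891 genes with a count, which is 0.0251%, and the opposite pattern, on in clone E and off in the rest, for 0 genes. The 6 genes were Adamtsl3, Armcx2, Zfp37, Fzd6, Slc14a1 and Osbpl10. They encode an extracellular matrix protein of the ADAMTS-like family, an armadillo repeat protein of the X chromosome, a zinc finger protein, a Wnt receptor, a urea transporter and an oxysterol-binding protein, in that order. Applied to each of the other clones, the rule gave between 1 and 6 off genes and between 0 and 19 on genes, so the number of off genes in clone E was matched by clones K and V.

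Adamtsl3 was at 0, 0.223, 0 and 0 CPM in clone E and at 4.58 to 115 CPM in the libraries of the other clones. A single library, replicate 2, held the 3 counts of the clone, and the lowest other clone, T, exceeded clone E 137-fold (95% Poisson interval 47 to 666). Armcx2 was at 0, 0.149, 0 and 0 CPM against 2.83 to 48.5 CPM. Its 2 counts again came from replicate 2, and the lowest other clone, K, was 126-fold higher (35 to 1040). Zfp37 had no count in any of the 4 libraries, while the other clones' libraries ranged from 1.1 to 10.4 CPM. Against a floor of 3 counts over the group, 0.0429 CPM, it was at least 48.5-fold lower in clone E than in clone V, the lowest of the others. Fzd6 was at 0.0461, 0, 0.215 and 0.124 CPM against 1.55 to 27.6 CPM, and Slc14a1 at 0.138, 0.0744, 0.107 and 0.0619 CPM against 1.43 to 62.4 CPM. Osbpl10 had 1 count in clone E, which made clone H, the lowest of the others, 72.3-fold higher with a wide interval of 13 to 2860. No clone E library reached the lowest library of any other clone for these 6 genes, as the rule all but required. These intervals and floors cover counting error only.

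Of the 6 off genes, only 3 had a start region in the promoter set used. These 3 are printed below and differ in CpG content. The sequences are from RefSeq, build GRCm38.p6, and have CpG dinucleotides in capitals. They run from 250 bases before to 50 bases after the RefSeq start nearest to the gene's 5' end in GENCODE. For Zfp37 that 5' end lies at 62231047, outside the region shown. Adamtsl3 lies on the plus strand at chr7:82335444-82335743, Armcx2 on the minus strand at chrX:134809172-134809471 and Zfp37 on the minus strand at chr4:62208497-62208796.
Adamtsl3: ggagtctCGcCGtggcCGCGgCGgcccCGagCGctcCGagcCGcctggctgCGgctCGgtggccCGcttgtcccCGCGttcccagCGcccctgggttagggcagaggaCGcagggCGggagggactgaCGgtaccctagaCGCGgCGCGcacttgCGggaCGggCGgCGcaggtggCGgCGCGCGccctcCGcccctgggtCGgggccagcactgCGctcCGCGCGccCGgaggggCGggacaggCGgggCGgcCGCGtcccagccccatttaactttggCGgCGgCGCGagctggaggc
Armcx2: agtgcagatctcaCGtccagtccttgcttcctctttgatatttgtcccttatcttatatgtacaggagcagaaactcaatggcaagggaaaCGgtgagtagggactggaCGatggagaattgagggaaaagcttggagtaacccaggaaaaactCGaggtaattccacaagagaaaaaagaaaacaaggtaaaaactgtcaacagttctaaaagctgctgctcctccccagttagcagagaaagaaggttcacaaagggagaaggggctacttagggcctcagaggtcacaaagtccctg
Zfp37: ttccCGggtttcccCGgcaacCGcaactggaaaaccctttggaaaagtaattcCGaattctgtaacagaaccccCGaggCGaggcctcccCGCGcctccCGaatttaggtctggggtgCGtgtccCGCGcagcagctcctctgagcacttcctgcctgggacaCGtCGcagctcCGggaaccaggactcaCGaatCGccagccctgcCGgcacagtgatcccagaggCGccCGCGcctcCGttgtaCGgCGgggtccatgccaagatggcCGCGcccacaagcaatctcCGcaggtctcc
Adamtsl3 had 46 CpG and Zfp37 27, against a median of 21 over the 9410 tested genes with a promoter in the table, while Armcx2 had 4. Armcx2 lies 42.7 kb from Armcx3, its X-linked relative, which was also lowest in clone E with 1 count.

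The second question was where clone E was extreme. A gene was called highest or lowest when clone E differed from each of the other 6 clones by at least 1 on the log2 scale, with an adjusted p under 0.1 in all 6 edgeR quasi-likelihood tests, and when its 4 libraries did not overlap any of the 24 others. Of 13509 genes tested, 40 were highest (0.296%) and 111 lowest (0.822%). With the same rule the other clones had 44 to 201 highest and 28 to 197 lowest genes, so clone E had the fewest highest genes of the 7 clones and the third most lowest. The nearest clone for the lowest genes was most often T, for 37 of 111, then K for 27 and N for 19. Pair by pair, at the same minimum difference and adjusted p, clone E differed from clone T in 1352 genes (10% of those tested), from N in 2032 (15%), from M in 2210 (16.4%), from K in 2760 (20.4%), from H in 2898 (21.5%) and from V in 3028 (22.4%). Clone T was therefore the line most like clone E, and H and V the least.

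**Figure D1:**
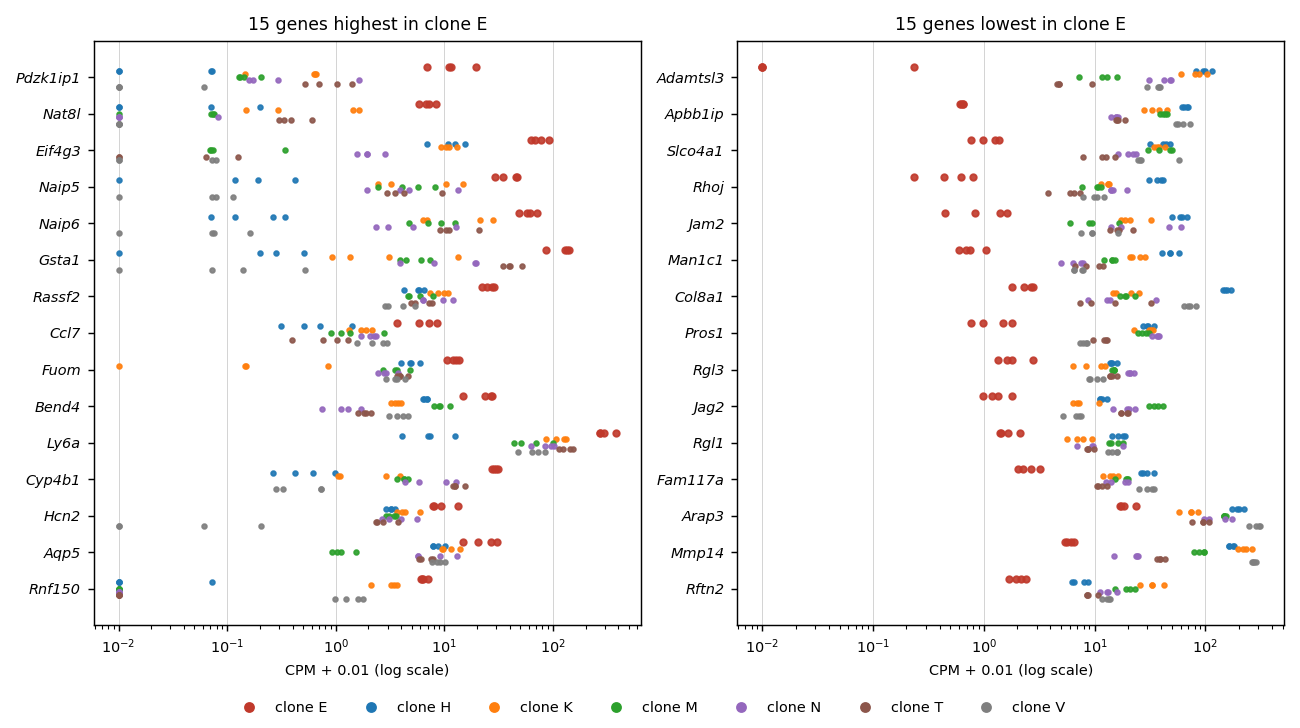
CPM (plus 0.01, log scale) of the 15 named genes highest and the 15 lowest in clone E, with 1 point per library and clone E in red. Red points lie to the right of all others on the left panel and to the left of all others on the right panel, as the rule required; points at 0.01 are libraries with no count.

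Several genes highest in clone E were neighbours, on chromosomes 4, 9 and 13 and, as a pair of predicted genes, on 18. On chromosome 9, Gsta4, Gsta1 and Gsta2, alpha-class glutathione S-transferases, and the predicted gene Gm10639 lay between 78182774 and 78355788. Gsta4, which acts on the lipid peroxidation product 4-hydroxynonenal, was at 997, 1055, 709.6 and 1084 CPM, against 41.2 to 560.4 CPM in the other clones. Gsta1 was at 141, 135, 86.5 and 129.99 CPM, above clone T, the next highest at 41.5 CPM, and 3 of its values were close together with replicate 3 lower. Gsta1 and Gsta2 are similar in sequence and may share reads, so their split is uncertain. On chromosome 4, Pdzk1ip1, Cyp4a12a, Cyp4a12b and Cyp4b1 lay between 115088708 and 115647723. Pdzk1ip1, a small membrane protein of epithelial cells, was at 11.4, 19.6, 6.87 and 11.1 CPM against at most 1.63 CPM, and Cyp4b1, a cytochrome P450, at 30, 28.5, 31.4 and 27.5 CPM against at most 15.5 CPM. On chromosome 13, Naip5 and Naip6, inflammasome sensors of bacterial flagellin, had 38.8 ± 8.52 and 60.1 ± 9.37 CPM (SD, n = 4) and no library of another clone above 14.8 and 28 CPM. The Naip genes are near copies of each other and may share reads.

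Eif4g3, a scaffold of translation initiation, had the largest difference from the mean of the other clones among the 15 named highest genes. It was at 67.8, 63.4, 92.4 and 78.1 CPM in clone E. The other clones fell into those with about 11 CPM (H 11.4 and K 10.9), clone N with 2.06 CPM, and M, T and V with 0.129, 0.0421 and 0.0329 CPM. Clone E was 6.88 ± 0.16 higher on the log2 scale (SE; adjusted p = 6.23e-22, edgeR), a value that averages over clones near 0. Its start region is shown with that of Pdzk1ip1, since both genes were highest in clone E and on chromosome 4 but differ in CpG content. Eif4g3 lies on the plus strand at chr4:137993205-137993504 and Pdzk1ip1 on the plus strand at chr4:115088458-115088757, with CpG in capitals as above.
Eif4g3: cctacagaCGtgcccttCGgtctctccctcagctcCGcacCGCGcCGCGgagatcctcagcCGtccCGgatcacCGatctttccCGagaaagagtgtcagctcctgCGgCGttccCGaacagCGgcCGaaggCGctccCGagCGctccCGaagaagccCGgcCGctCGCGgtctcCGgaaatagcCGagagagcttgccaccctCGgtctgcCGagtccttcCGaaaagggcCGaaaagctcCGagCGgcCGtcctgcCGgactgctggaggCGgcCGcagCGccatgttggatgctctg
Pdzk1ip1: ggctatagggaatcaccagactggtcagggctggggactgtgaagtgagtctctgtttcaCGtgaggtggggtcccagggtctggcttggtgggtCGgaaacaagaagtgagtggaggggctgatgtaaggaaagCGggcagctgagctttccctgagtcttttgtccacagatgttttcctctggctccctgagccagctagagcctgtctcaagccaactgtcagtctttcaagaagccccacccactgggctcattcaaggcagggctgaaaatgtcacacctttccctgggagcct
Eif4g3 had 37 CpG and Pdzk1ip1 had 3. Of the 27 highest genes with a promoter in the table, 8 (29.6%) were CpG-rich, defined as an observed to expected ratio above 0.6 and over 50% G and C, against 43.2% of 81 lowest genes and 70.2% of all 9410 tested.

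The remaining named highest genes were of varied function. Nat8l, which makes N-acetylaspartate from aspartate, was at 7.24, 5.88, 6.71 and 8.29 CPM, and no other library exceeded 1.62 CPM. Ly6a, the stem cell antigen Sca-1, was at 298, 379.9, 271 and 269 CPM, and the next clones were T at 134 and K at 113 CPM. Rassf2, a Ras-association domain protein, was at 24.9, 27.3, 22.3 and 29 CPM against 2.83 to 12 CPM. Bend4, Aqp5, a water channel, Hcn2, an ion channel, Fuom, which interconverts forms of fucose, Ccl7, a monocyte chemoattractant, and Rnf150 were highest at 6.29 to 23.3 CPM. Of these, Rnf150 was at 0 in all libraries of M, N and T. Its difference lost its call (adjusted p = 1) with library number, split at 43, in the fit, a split that the labels do not name.

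Among the 15 named lowest genes were a protease, a collagen, an adhesion molecule and regulators of small GTPases. Mmp14, the membrane-anchored collagenase, was at 5.4, 6.54, 5.58 and 6.13 CPM, while the other clones ranged from 21.9 in N to 273 in V. The difference from the mean was -4.04 ± 0.12 on the log2 scale (SE; adjusted p = 1.17e-19, edgeR). Apbb1ip, which recruits talin to integrins downstream of Rap1, was at 0.646, 0.595, 0.644 and 0.619 CPM, and no other library was under 14 CPM. Col8a1, a short-chain collagen, was at 2.67, 2.75, 1.77 and 2.29 CPM against 7.35 to 171 CPM. Jam2, a junctional adhesion molecule, Rhoj, a Cdc42-related GTPase, Arap3, a regulator of small GTPases, and the Ral exchange factors Rgl1 and Rgl3 were lowest as well, with Arap3 at 17.1, 17.2, 23.4 and 18.4 CPM against 58.4 to 309 CPM. Slco4a1, an organic anion transporter, Man1c1, a mannosidase, Pros1, which encodes the anticoagulant protein S, Fam117a and Rftn2 completed the 15 with Adamtsl3 and Jag2. None of these reached 4 CPM in any clone E library apart from Arap3 and Mmp14. Zfp37, Sulf1, Satb1, Rora, Dact2, Epor and Ctse had no count in clone E at all. For Satb1, a chromatin organiser, clone E was at least 1.75-fold lower than clone N, the lowest of the others. For Sulf1, a heparan sulfate sulfatase, it was at least 2.92-fold lower than clone M, the lowest there. Against the clone with the most of each, clone E was at least 428-fold lower for Satb1 and 1680-fold lower for Sulf1.

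To place these genes, clone E was compared with the mean of the 6 clones over whole pathways. Of 13509 genes, 4018 (29.7%) were higher and 3539 (26.2%) lower in clone E at an adjusted p under 0.1 by edgeR, 7557 (55.9%) in all, with a median difference of 0.01 on the log2 scale. List counts are read against these shares. The p-values measure the spread between libraries of a clone, which the labels do not describe as separate cultures. With each clone as 1 replicate, 0 of 16373 genes passed in edgeR, 393 (2.4%) had an unadjusted p under 0.05, and DESeq2 called 142 (0.969%).

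**Figure D2:**
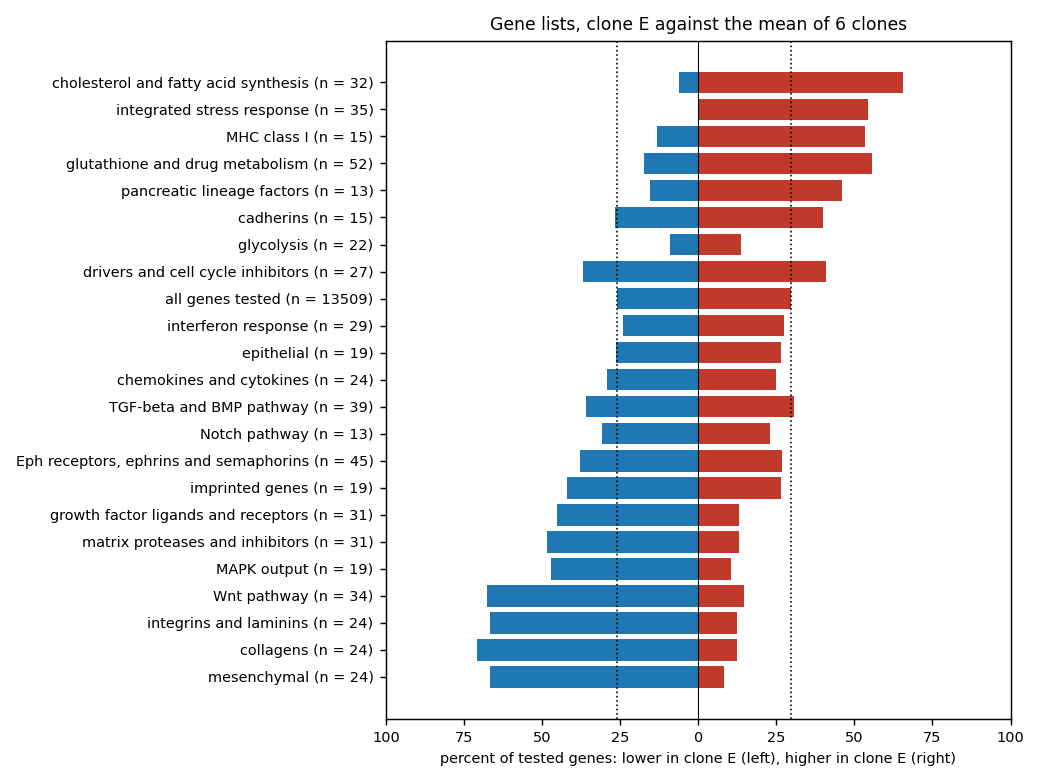
Percent of the tested genes of a list that were higher (red, right) or lower (blue, left) in clone E than the mean of the other 6 clones at an adjusted p under 0.1, with the number tested. Lists with fewer than 13 tested genes and the clustered protocadherins are not drawn. Dotted lines mark the 29.7% higher and 26.2% lower of all 13509 genes. Matrix and Wnt lists extend far to the left, and cholesterol, integrated stress response, MHC class I and glutathione lists to the right.

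Wnt pathway genes were low. Of 54 listed genes 34 were tested, 23 were lower and 5 higher, with a median of -1.53 on the log2 scale, and the count of lower genes was 21 to 25 in every alternative run. Clone E had the lowest mean of all 7 clones in 12 of the 34 (35.3%), against 11.2% of all genes tested. Among receptors, Fzd6 was off, Fzd3 was at 0.302 ± 0.265 CPM (SD, n = 4) against clone means of 0.802 to 7.62, and Lgr6, an R-spondin receptor, was at 6.68 ± 1.52 CPM against 6.58 in N and 24.6 to 98.2 in the rest. Among ligands, Wnt7a was at 1.25, 0.372, 0.376 and 0.433 CPM, which lay near clone N at 0.502 CPM and under the 5.24 to 25.8 CPM of the other 5. Sfrp1, a secreted inhibitor that binds Wnt, was at 0.553, 0.669, 0.912 and 0.433 CPM and ranged up to 346 CPM elsewhere, with clone H at 1.9 CPM the nearest. The target genes Rnf43 and Axin2 were at 0.543 ± 0.158 and 0.303 ± 0.216 CPM. Rnf43 was lowest in clone E, with no other library under 1.13 CPM, while the Axin2 values of 0.0922, 0.149, 0.536 and 0.433 CPM overlapped the lowest other library, at 0.517 CPM. The 5 higher genes were Wnt4, Lgr4, Wnt10a, Ryk and Fzd7. Wnt4 was at 122 ± 15.5 CPM, well above H at 4.3 and V at 4.87 CPM but under the 156 to 202 CPM of K, M and T.

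**Figure D3:**
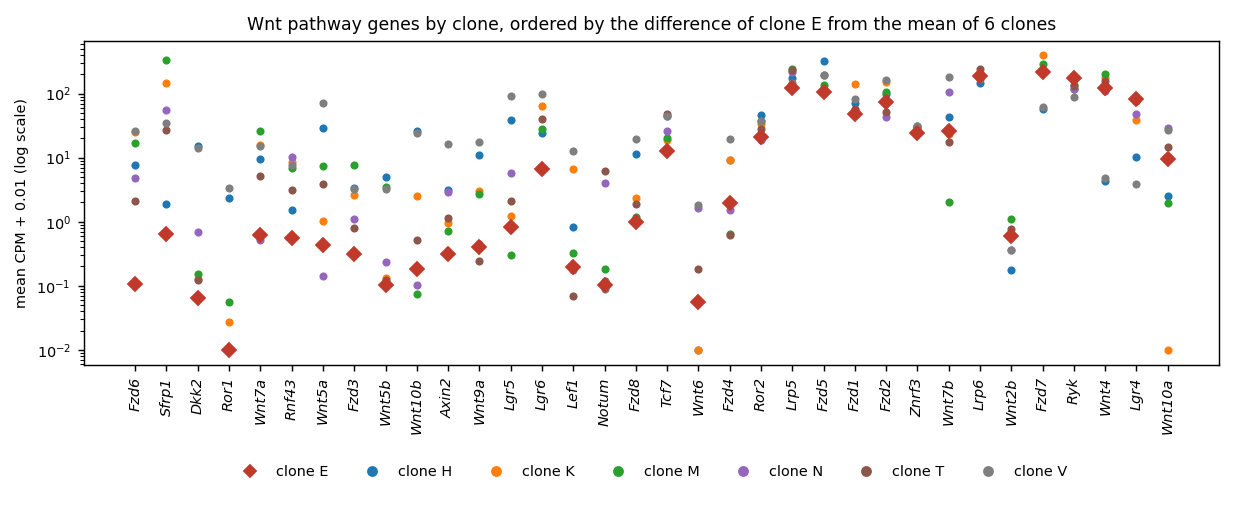
Mean CPM (plus 0.01, log scale) of the 34 tested Wnt pathway genes in each of the 7 clones, ordered from left to right by the difference of clone E from the mean of the other 6. The red diamonds of clone E lie at or near the bottom for the genes on the left, with Fzd6 and Sfrp1 first, and Wnt10a, Lgr4 and Wnt4 stand at the right.

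Genes of the matrix and of attachment to it were low as well. In the mesenchymal list 24 of 26 genes were tested, 16 were lower and 2 higher, with a median of -0.57. Fibronectin (Fn1) was at 1187, 1047, 1361 and 839 CPM, close to clone M at 959 CPM and far under the 4983 to 9762 CPM of the other 5 clones. Prrx1, a mesenchymal transcription factor, was at 1.71, 1.26, 1.07 and 0.866 CPM against 3.09 to 103 CPM, and was lowest in clone E. By contrast vimentin (Vim), with an adjusted p of 0.318, and Zeb1, with 0.103, did not pass the test, and Twist2 was higher at 44.9 ± 6.49 CPM, within the range of K, M, N and T.

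Of 24 collagens tested, 17 were lower and 3 higher, with a median of -0.90. The basement membrane collagen Col4a1 was at 203, 194, 225 and 196 CPM and the other clone means at 251 to 625 CPM. Of 24 integrins and laminins tested, 16 were lower and 3 higher, with a median of -0.68. Lamb3, a laminin chain of epithelia, was lowest in clone E at 0.231, 0.0744, 0.912 and 0.495 CPM, and Lamb1 was at 193 ± 29.8 CPM against 275 to 1079 CPM. Of 31 matrix proteases and inhibitors tested, 15 were lower and 4 higher, and Adamts1 was lowest next to Mmp14, at 0.553, 0.372, 0.268 and 0.99 CPM. Summed over this list, clone E reached 1615 CPM, within the 981 to 2217 CPM of the other clones. The sums of the mesenchymal, collagen and integrin and laminin lists were under those of every other clone. Across these lists the counts of lower genes were 12 to 18 for the mesenchymal list, 14 to 19 for collagens, 14 to 18 for integrins and laminins and 12 to 22 for matrix proteases and inhibitors under the alternatives run. In the epithelial list, 5 of 19 tested genes were higher and 5 lower, near the shares of all genes. Cdh1 itself was higher than the mean by 2.41 ± 0.07 on the log2 scale (SE; adjusted p = 3.07e-19, edgeR), with clone V above clone E at 305 CPM. That value averages over the low clones K at 6.04 and M at 1 CPM. In CPM, clone E was at 140 against a mean of 83.2 over the other 6 clones.

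Signalling ligands and receptors followed in part. Of 31 growth factor genes tested, 14 were lower and 4 higher. Pdgfra, the receptor for platelet-derived growth factor, was lowest in clone E at 0.184, 0.521, 0.376 and 0.804 CPM against 1.88 to 52.1 CPM. Fgfr1 was at 56.2 ± 12.7 CPM, and the clone means of the others were 69 to 343 CPM. Jag2, a Notch ligand, was lowest at 1.34, 0.967, 1.18 and 1.79 CPM, whereas the Notch ligand Dll1 was higher at 29 ± 4.88 CPM and the Notch list as a whole had 3 of 13 genes higher and 4 lower. Inhba, a subunit of activin, was lowest at 1.34, 0.669, 1.34 and 0.495 CPM, while the TGF-beta and BMP list was divided with 12 of 39 higher and 14 lower. Grem1, a BMP antagonist, was among the higher genes at 339 ± 11.8 CPM, between K at 281 and N at 448 CPM. Of 19 targets of MAPK signalling, 9 were lower and 2 higher, among them Etv5 at 49.2, 34.6, 45.4 and 36.7 CPM, a difference of -1.11 ± 0.11 on the log2 scale (SE; adjusted p = 3.02e-09, edgeR). Cxcl12, a chemokine, had no count in clone E, was at 0.0918 CPM in N and 0.365 CPM in H, and reached 880.3 CPM in K.

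Glutathione and drug metabolism genes were high. Of 52 tested, 29 were higher and 9 lower, with 24 to 32 higher under the alternatives, and clone E had the highest mean of all 7 clones in 11 (21.2%), against 10.7% of all genes tested. Besides the Gsta genes, the catalytic subunit of glutamate-cysteine ligase, Gclc, was at 253, 237, 292 and 282 CPM. The other clones ranged from 36.2 in V to 209 in N, and single libraries up to 259 CPM, so that the groups overlapped. Its modifier subunit Gclm was at 148 ± 5.91 CPM against 74.2 to 124 CPM. Gstp1, the pi-class transferase, was at 129.7, 132, 107 and 111 CPM, and no other library exceeded 87 CPM. It did not count as highest because clone K, at 71.2 CPM, was less than 1 away on the log2 scale. Nqo1 and Mgst1, both enzymes of detoxification, were higher than the mean of the others at 17.7 ± 2.03 and 142 ± 21.05 CPM, but N and T were above clone E for Nqo1 and T for Mgst1.

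Cholesterol and fatty acid synthesis genes were mostly higher as well. Of 32 tested, 21 were higher and 2 lower, with a median of 0.28, and 13 (40.6%) had their highest mean in clone E, against 10.7% of all genes tested. Elovl5, a fatty acid elongase, was at 1077, 1079.6, 1038 and 1138 CPM, above the means of all other clones but overlapping a library of another clone at 1061 CPM. Mvk, mevalonate kinase, was at 122, 141, 98.4 and 141 CPM against 24.2 to 107 CPM, so the groups overlapped. Scd1, the stearoyl-CoA desaturase, was at 1626 ± 113 CPM against clone means of 898 to 1328 CPM and differed by 0.61 ± 0.11 on the log2 scale. The 2 lower genes were the desaturases Fads1 and Fads2. Of 35 genes of the integrated stress response, 19 were higher and 0 lower, and the count ranged from 13 to 27. These were not highest in clone E, since clone N was above it for most: Slc7a11 was at 209 ± 94 CPM in clone E and at 663 CPM in N, and Stc2 at 32 and 59.3 CPM. Asns and Atf4 were at 154 ± 41.3 and 533 ± 37.8 CPM with adjusted p of 0.0751 and 0.063 (edgeR), and neither held in every alternative. The other clones ranged from 32.3 to 333 CPM for Asns, with H, T and N above clone E, and from 219 to 907 CPM for Atf4, with N above. Summed over the integrated stress response list, clone E reached 5636 CPM, within the 2901 to 9169 CPM of the other clones.

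The remaining lists are read against the 29.7% higher and 26.2% lower of all genes tested. The counts for interferon response and for chemokines and cytokines lay near these shares. Of 29 interferon response genes 8 were higher and 7 lower, of 24 chemokines and cytokines 6 and 7, of 45 Eph receptors, ephrins and semaphorins 12 and 17, and of 22 glycolysis genes 3 and 2, where the count of higher genes rose to 9 without clone N. Of 15 cadherins 6 were higher and 4 lower, of 14 clustered protocadherins 0 and 4, of 19 imprinted genes 5 and 8, of 2 Hox genes 1 and 0 and of 4 sex chromosome genes 3 and 0. Of 13 pancreatic lineage factors 6 were higher and 2 lower. Hnf4a, a factor of endodermal identity, was at 14.9, 10.1, 19.1 and 12.5 CPM, far above H, K, M and V at 0.0343 to 0.705 CPM and under N and T at 52.9 and 79.7 CPM. Among 15 MHC class I genes 8 were higher and 2 lower, and Cd274, which encodes PD-L1, was at 17.8, 26.7, 33.4 and 24.9 CPM, at the level of K at 26.5 CPM. Of 27 drivers and cell cycle inhibitors 11 were higher and 10 lower. Hras was at 42.8, 44.6, 37.2 and 38.8 CPM and no other library exceeded 29.3 CPM, and Brca2 was at 28.8 ± 6.28 CPM against 4.84 to 20.8 CPM. Cdkn2a was at 117 ± 11.1 CPM, under the mean but above N and T. Myc was at 268 ± 28.8 CPM and did not pass the test (adjusted p = 0.763, edgeR).

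Position along the genome was a further pattern that the choice of genes had not used. The median difference of clone E from the other clones, over genes with a mean of at least 1 CPM, ran from -0.29 on chromosome 1 to 0.24 on chromosome 5. On chromosome 1, 698 genes had a median of -0.29 and clone E had the lowest median of all 7 clones in 106 of 132 overlapping windows of 40 genes. Chromosome 1 also held 17 of the 111 lowest genes (15.3%), among them Prrx1, Lamb3, Rgl1 and Rftn2, but 5.76% of the genes tested, and 0 of the 40 highest. On chromosome 7, clone E had the highest median of all clones in each of the 81 windows from Igf1r, at 67952827, to the end of the chromosome, with values from 0.167 to 0.593. The peak window, 141061104 to 143649661, from B4galnt4 to Tnfrsf22, holds Hras, and the other clones had medians between -0.13 and 0.01 there. Other clones had shifts of the same order, such as -0.66 in N on chromosome 13. This held on the same chromosomes too, with clone V at -0.21 on chromosome 1 and clone T at 0.20 on chromosome 5.

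**Figure D4:**
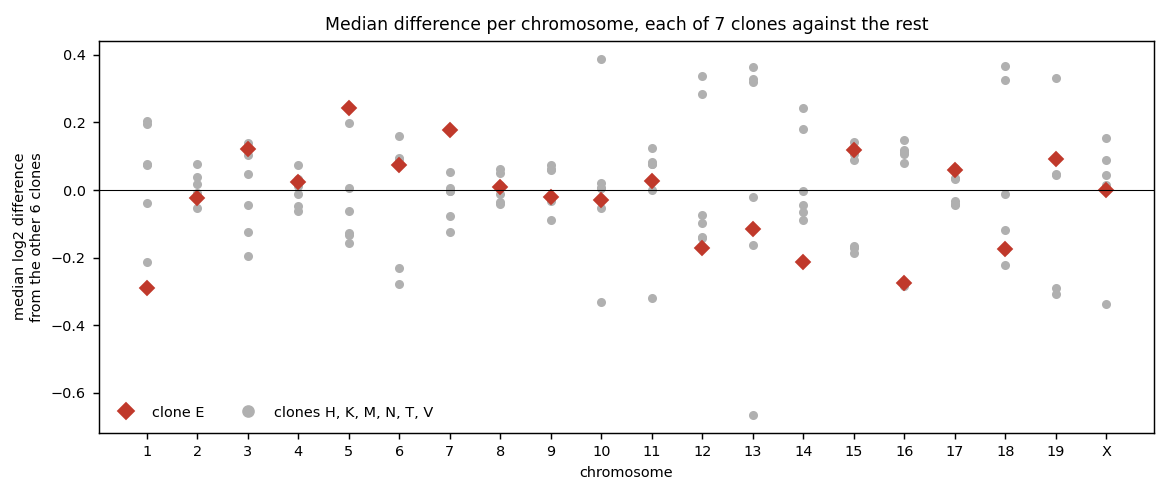
Median log2 difference of each clone from the mean of the other 6, for genes of each chromosome, with clone E as red diamonds and the other clones as grey points. Clone E is the lowest clone on chromosomes 1, 12 and 14 and the highest on 5 and 7.

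Finally, the clone E pattern was followed into coculture, in 28 other libraries of the same 7 clones after 48 h with fibroblasts. There clone E differed from the mean of the other clones in 7646 of 13399 genes (57.1%). Of the 40 highest genes 11 did not pass the expression filter there, among them Pdzk1ip1 at 2.39 CPM and Gsta2 at 0.224 CPM in clone E. A gene near 0 in the other clones passes that filter mainly through clone E, so the direction of the 29 that passed was largely fixed by the filter and is given as a description. All 29 were higher in clone E, and 8 of the 40 were again highest by the full rule, against 24 genes in all (0.179%). Of the 111 lowest genes 109 passed the filter, which the other clones' levels suffice for, 107 were lower past the threshold, and 47 were again lowest, against 72 in all (0.537%). Nat8l was again highest, at 7.86 CPM in coculture against at most 0.335 CPM as the mean of another clone, and Eif4g3 remained highest at 37.7 CPM. Gsta1 was at 4.35 CPM in coculture and 123 CPM in mono-culture, Gsta4 at 161 and 961 CPM, and Naip5 at 4.52 and 38.8 CPM, with another clone at 6.08 CPM of Naip5 in coculture, and these differences between cultures were not tested. Several of the lowest genes had higher levels in coculture, a difference also not tested, such as Mmp14 at 17.3 CPM, Prrx1 at 12.7 CPM and Armcx2 at 4.67 CPM. The sorted coculture libraries of clone E also held 323 to 858 CPM of fibroblast markers, with Col1a2 at 124 CPM against 0.0231 CPM in mono-culture. The part of fibroblast RNA in these values was not tested. Fewer cells with a transcript and less RNA per cell cannot be told apart in bulk libraries.

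**Figure D5:**
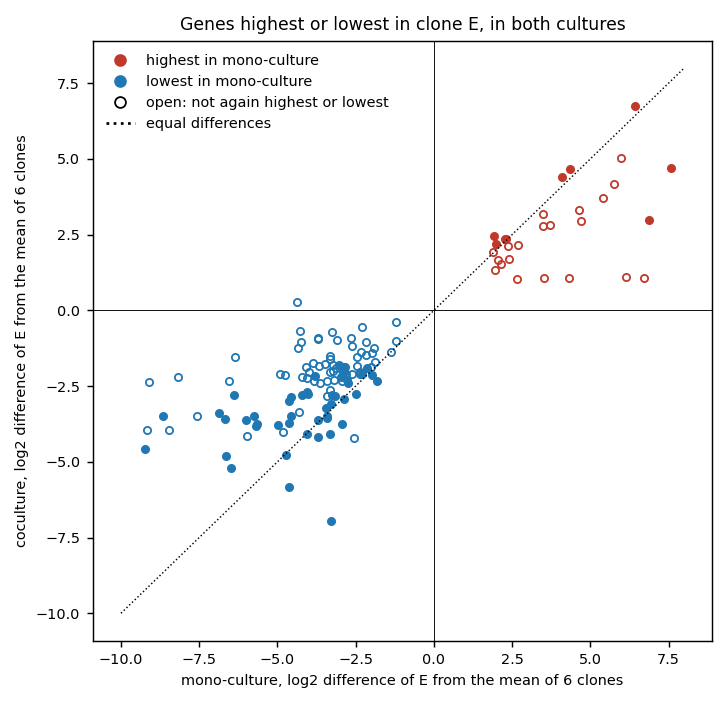
Log2 difference of clone E from the mean of the other 6 clones in mono-culture (horizontal) and coculture (vertical) for genes highest (red) or lowest (blue) in clone E in mono-culture and tested in both. Filled points were again highest or lowest in coculture, the dotted line marks equal differences, and a single blue gene lies above 0 on the vertical axis.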

How the data were processed

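RNA-seq of 64 samples was used as deposited. Per the labels, polyA libraries were made from 200 ng of total RNA with a strand-specific kit and sequenced as 76-base pairs; the submitters' processing notes name featureCounts, edgeR and the mm10 build. The authors deposited a table of counts per gene and a table of RPKM values, reads scaled to gene length and library size. Counts were the main measure; RPKM values were used only as an alternative, in limma 3.58.1 on log2(RPKM + 1) and log2(RPKM + 0.1). CPM were computed with TMM factors, and a log2 difference comes from the edgeR fit, in which a clone near 0 depends on the prior count. The SE of a log2 difference was derived as its size divided by the square root of the F statistic of its test. It is therefore approximate where clones are near 0. Genes passing edgeR's expression filter were fitted with 1 term per clone (edgeR 4.0.16, R 4.3.3, glmQLFit and glmQLFTest, Benjamini-Hochberg adjusted p under 0.1 over all genes), clone E against the equally weighted mean of 6 clones and against each. In a separate fit, each clone's summed counts were 1 replicate. DESeq2 1.42.0 was an alternative. Scripts were tested on simulated data. Gene positions are from GENCODE M21 (GRCm38), which held 37693 of 39017 ids.

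The 4 libraries per clone were treated as replicates. The lowest depth, 11661214 counts, leaves genes under about 1 CPM imprecise; 3 counts over clone E correspond to 0.0429 CPM. Genes were named by rule: all on or off genes, the 15 highest and 15 lowest by distance to the nearest clone at 5 CPM or more (predicted genes counted but not named), list members that were highest or lowest or otherwise up to 4 with the smallest adjusted p, and Trp53, Cdkn2a, Myc, Atf4 and Asns; some genes the rule names are not reported here. Other genes named from lists, position or neighbourhood were chosen after their values were seen. The members and the 30 gene lists were chosen with earlier results of these data known. KPC1 samples were not used here.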

Additional observations from a re-analysis of the deposited data

Results flagged for a closer look

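Among the 106 values of clone E examined for a library far from the other 3 (Dixon's test on 4 libraries), 10 were flagged, and chance alone flags about 1 in 20. Onecut2, a hepatocyte and pancreas transcription factor, was at 214 CPM in replicate 3 and at 90.1 to 100.2 CPM in the others. Robo2, an axon guidance receptor, was at 32.3 CPM in replicate 4 against 17.6 to 19.8 CPM. Gsta2 was at 2.72 CPM in replicate 1 against 1.13 to 1.24 CPM. Cdkn2a was at 133 CPM in replicate 2 against 110.1 to 113 CPM, and Nrp2 at 116 CPM in replicate 2 against 146 to 151 CPM. The Y-linked gene Eif2s3y was at 99.6 CPM in replicate 1 against 116 to 118 CPM. Adamtsl3 at 0.223 CPM, Armcx2 at 0.149 CPM and Osbpl10 at 0.0744 CPM in replicate 2, and H2-Q4 at 0.0461 CPM in replicate 1, were flagged because the other 3 libraries held no count. Replicate 2 was the shallowest clone E library, with 13162870 counts.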

How the results depend on the processing

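The direction and call of most named genes held: of 2050 values over 108 genes and 19 alternatives, 2002 kept both, 30 lost the call, 14 gained it and 4 reversed. The reversals were Hoxa6, with -0.081 on log2(RPKM + 1) and -0.281 on log2(RPKM + 0.1), and Snrpn, with -0.112 and -0.458. In CPM, clone E was at 0.0365 for Hoxa6 and 2.42 for Snrpn, under the means of the other clones at 0.151 and 5.9. The cause of the reversals was not tested. Of 1140 list counts, 67 moved by over 1.5 times. Without the minimum difference of 1 on the log2 scale, 232 genes were highest and 249 lowest. Leaving out a clone widened the set of highest genes, to 64 without K, 62 without N and 74 without T, and with only libraries 1 to 43, which drop K, 66 genes were highest and 167 lowest. limma on log2(RPKM + 1), a scale that shrinks differences of low genes, gave 12 highest and 14 lowest genes, and log2(RPKM + 0.1) gave 65 lowest. Genes on in clone E numbered 1 without H, K, N, T or V in turn, and genes off 11 without K. DESeq2 on clone sums called 142 genes where edgeR called 0. Leaving out 1 clone E library gave 6857 to 7328 genes different from the mean, 3783 to 4088 higher, 2999 to 3240 lower, 39 to 46 highest, 112 to 121 lowest, 0 on and 4 to 6 off. The split of library numbers at 43 was set for these runs, and the labels name no batch there. Clone K has all 4 libraries numbered above 43 and clone E none, so number and clone cannot be told apart between them. With the split as a term, 32 genes were highest, 30 of them among the 40, and 107 lowest. The replicate block gave 7920 genes different from the mean, 41 highest, 111 lowest and 8048 different in coculture; correlations of same-numbered libraries of clone E and another clone ran from -0.167 to 0.432 (median 0.148, 24 pairs) and of other-numbered ones from -0.395 to 0.398 (median -0.0731, 72 pairs), so not every same-numbered pair deviated together and the numbers were not taken as a pairing. At this depth, levels under 0.1 CPM rest on a few counts.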

Other observations

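Among genes that no pathway list held, several further highest genes were enzymes or receptors at low levels. Mgmt, which repairs O6-methylguanine in DNA, was at 4.7 CPM in clone E against at most 2.57 CPM in any other library. Ido2, a tryptophan-degrading enzyme, was at 1.85 CPM against at most 1.11 CPM, and Ramp3, a partner of calcitonin-family receptors, at 1.86 CPM against at most 0.778 CPM. Akr1c18, an aldo-keto reductase, was at 1.44 CPM against at most 0.972 CPM. These genes were chosen after their values were seen.

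Neighbouring pairs also occurred among the lowest genes: Crip2 and Crip1 on chromosome 12 lay 0.8 kb apart and 210.5 to 216.5 kb from Jag2, and Epor and Rgl3 on chromosome 9 lay 5.2 kb apart. Rftn2 and the predicted gene Gm10561 on chromosome 1 overlap.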
